A study of Mus musculus with 6 samples.

Results

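The Hox genes of mouse tumor endothelial cells (ECs) and the long noncoding RNA Hotairm1 are described here in WT and Apelin-KO mice. The Hox members were taken by name, as every gene symbol made of Hox, the letter a, b, c or d and a number, which gave 39 genes. Hotairm1 was added because it was chosen on its measured values, as a gene among those most raised in Apelin-KO ECs in these same samples. Its difference between genotypes is therefore given as a description without a test. Together they are 40 of the 24346 gene symbols in the deposited tables. The study compared ECs from MC38 tumors, subcutaneous grafts of a mouse colon carcinoma line, in 3 WT and 3 Apelin-KO samples. Its aim was to learn how Apelin brings T cells into the central parts of the tumor. Both groups were on the C57BL/6 background. The mice were 8 to 10 weeks old and the ECs were taken from tumors at day 19. The sample titles of both groups also name saline, which the study's account of this experiment does not mention. Apelin-KO mice lack Apln in all their cells, while the grafted MC38 cells are the same in both groups. CD31+ CD45- cells were sorted from digested tumors, and gene expression was given as FPKM, fragments scaled to transcript length and to the mapped reads of the library. Nothing in the labels says that the 3 samples of a group are separate mice, so p-values measure only the spread between these samples.

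Hox genes encode homeodomain transcription factors that give cells their position along the body axis. They lie in 4 clusters, and within each cluster the genes are numbered by position, from the genes used in anterior parts of the embryo to those used in posterior parts. Adult ECs keep a Hox pattern that reflects where their vessel lies, and several Hox proteins are known to favor or to restrain the sprouting of vessels. Hotairm1 is transcribed from the anterior end of the Hoxa cluster, beside Hoxa2 and in the opposite direction, and is known from myeloid cells, in which retinoic acid raises it.

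A transcript of Hotairm1 is shown because its small size bears on every value given for it. On GRCm38 it spans chr6:52158524-52162020 on the plus strand, with exon 1 from 52158524 to 52158686 and exon 2 from 52161931 to 52162020. The exons of 163 and 90 bases join to a cDNA of 253 bases with a GC content of 62.8%. It was read from the shorter of 2 GENCODE transcripts that are paired with a RefSeq entry, and the longer has 409 bases. The annotated gene as a whole spans chr6:52156902-52162119. Exon 2 is in capitals.

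Hotairm1: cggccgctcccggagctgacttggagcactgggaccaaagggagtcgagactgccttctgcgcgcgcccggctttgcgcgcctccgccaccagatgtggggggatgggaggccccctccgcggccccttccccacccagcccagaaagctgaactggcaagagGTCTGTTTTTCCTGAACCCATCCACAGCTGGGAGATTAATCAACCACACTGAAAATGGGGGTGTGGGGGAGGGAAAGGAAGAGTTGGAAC

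Hoxa2 lies 396 bases beyond this transcript, on the minus strand. The libraries were made with a stranded kit, but whether strand was used in counting is not given in the sources used here. If it was not, reads of Hotairm1 and of transcripts from the opposite strand cannot be told apart.

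The samples were checked first. Apln, the deleted gene, was 432, 435 and 504 FPKM in the WT and 9.96, 17.5 and 24.3 FPKM in the Apelin-KO samples. All 15 endothelial markers had a mean of at least 1 FPKM, and their summed level was 4543 to 5375 FPKM in WT and 5476 to 5770 FPKM in Apelin-KO samples. Depth was estimated from the FPKM steps of low genes and lay between 9000000 and 10260000 reads per sample, which assumes 200-base fragments.

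In these tumor ECs the Hox genes of the middle of the clusters were the most highly expressed, and the Hoxc cluster was almost silent. The 39 Hox genes summed to 95.5, 81.7 and 89.2 FPKM in the WT samples and to 94.7, 107 and 116 FPKM in the Apelin-KO samples, so that the groups overlapped. In such bulk samples, fewer cells of a type and less RNA per cell cannot be told apart. Hoxd genes, on chromosome 2, held between 40.8% and 50.7% of this sum. Hoxb genes, on chromosome 11, held 27.0% to 36.0%, and Hoxa genes, on chromosome 6, held 15.2% to 21.5%. The 9 Hoxc genes, on chromosome 15, held only 0.610% to 1.92%. By position, genes 5 to 8 held 64.9% to 71.7% of the Hox sum over the 6 samples. Genes 9 and 10 held 20.3% to 24.4%, the anterior genes 1 to 4 held 5.96% to 10.5%, and the posterior genes 11 to 13 held 0.305% to 1.68%. The same order of these 4 stretches was seen in every sample, since their ranges did not overlap.

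**Figure D1:**
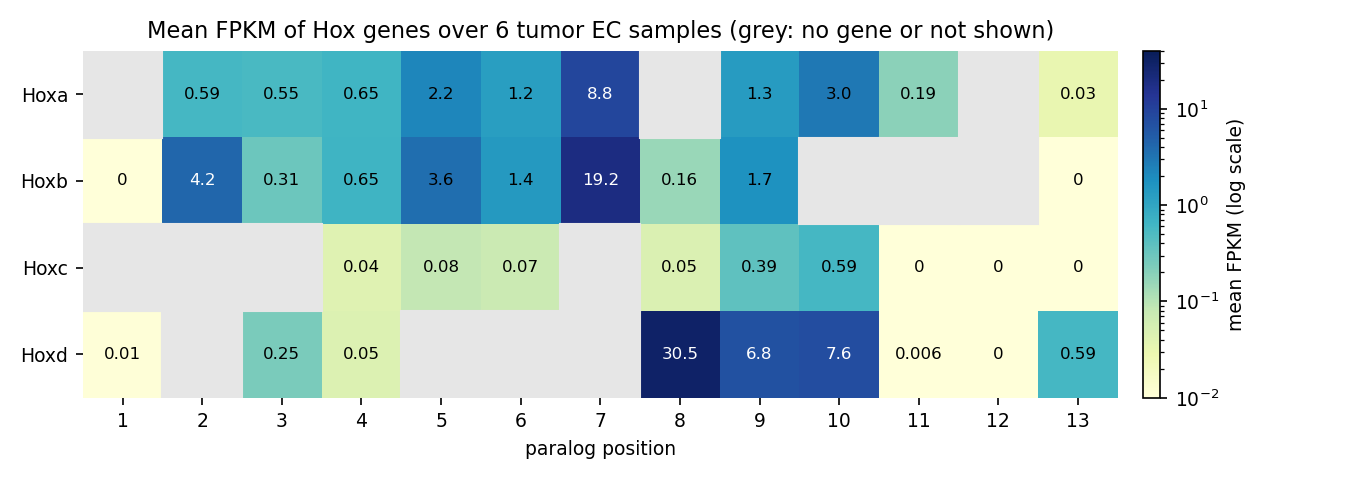
Mean FPKM over the 6 samples of each Hox gene, with the clusters in rows and the paralog position in columns. Color follows a log scale on which values under 0.01 FPKM are drawn as 0.01, and grey marks positions where the cluster has no gene or the gene is not shown. The highest values stand at Hoxd8 with 30.5 FPKM and Hoxb7 with 19.2 FPKM.

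A mean of at least 1 FPKM was reached by 13 Hox genes, 5 of Hoxa, 5 of Hoxb, 3 of Hoxd and 0 of 9 of Hoxc. From high to low the means were 30.5 FPKM for Hoxd8, 19.2 for Hoxb7, 8.77 for Hoxa7, 7.62 for Hoxd10, 6.84 for Hoxd9, 4.16 for Hoxb2, 3.60 for Hoxb5, 2.97 for Hoxa10, 2.22 for Hoxa5, 1.71 for Hoxb9, 1.41 for Hoxb6, 1.31 for Hoxa9 and 1.23 for Hoxa6. The 5 highest genes held 69.4% to 79.5% of the Hox sum. Neighbours in this order mostly overlapped between samples. The 6 values of Hoxb7 all lay above those of Hoxa7, and those of Hoxd9 all above those of Hoxb2. The ranges of Hoxd8 and Hoxb7 overlapped, although Hoxd8 was the higher of them within each of the 6 samples.

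Apelin-KO and WT samples were compared with limma on log2(FPKM + 1) over the 10964 genes whose mean was 1 FPKM or more. All fold changes are Apelin-KO minus WT on that scale, which understates the change of low genes. None of the 13 Hox genes had an adjusted p-value under 0.05, a threshold that 0.00912% of the tested genes passed, with adjusted p-values from 0.501 to 0.925. At an unadjusted p-value under 0.05, 2 Hox genes were higher in Apelin-KO ECs (Hoxa5 and Hoxd8), where 4.25% of all tested genes were, and 1 was lower (Hoxa6), where 5.17% were. With each gene's own variance in place of limma's moderated one, only Hoxa5 was left, beside 3.71% of all tested genes higher and 3.43% lower. The values of the groups did not overlap for 1 Hox gene higher in Apelin-KO ECs, Hoxa5, against 7.77% of all tested genes, and for 1 lower, Hoxa6, against 6.61%. The log2 fold changes of the 13 genes had a median of 0.26, beside 0.01 for all tested genes, and 9 of the 13 were above 0, beside 52.5% of all tested genes. Over all 33 Hox genes above 0 in any sample, fitted without the filter, 17 (51.5%) were above 0 and the median was 0.0058, beside 48.6% and -0.0032 for all 16341 such genes. The median of the 13 genes was 0.16 without Apelin-KO 3. Within the clusters, 2 of 5 Hoxa genes, 4 of 5 Hoxb genes and 3 of 3 Hoxd genes were above 0.

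**Figure D2:**
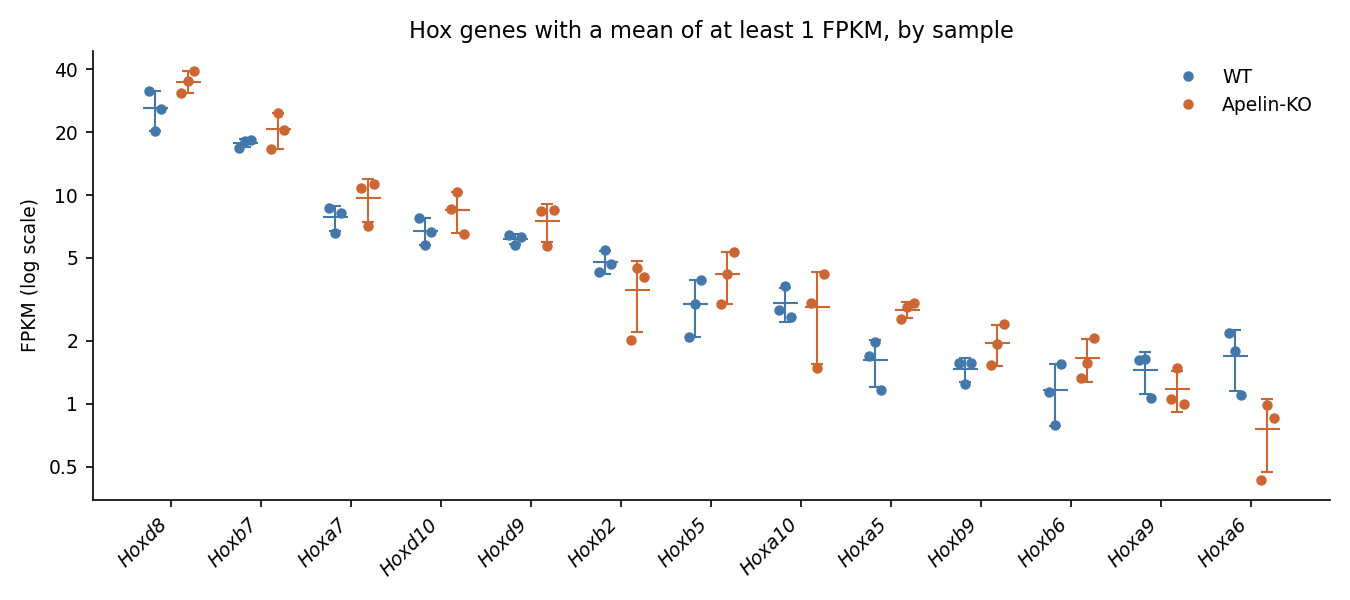
FPKM on a log axis of the 13 Hox genes whose mean was 1 FPKM or more, ordered by mean, in WT (blue) and Apelin-KO (orange) samples. Points are samples in the order of their numbers, and bars give the mean and SD (n = 3). The 3 Apelin-KO points lie above the 3 WT points for Hoxa5 and below them for Hoxa6, and the groups overlap for the other genes.

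In the Hoxa cluster the neighbours Hoxa5 and Hoxa6 had fold changes in opposite directions, but neither had an adjusted p-value under 0.05. Hoxa5 (chr6:52201754-52204587, minus strand), known as a restraint on angiogenesis, was 1.70, 1.98 and 1.17 FPKM in the WT samples and 2.54, 2.90 and 3.02 FPKM in the Apelin-KO samples. All Apelin-KO values lay above all WT values. The means were 1.62 ± 0.414 FPKM (SD, n = 3) for WT and 2.82 ± 0.249 FPKM (SD, n = 3) for Apelin-KO, 1.74-fold apart. The log2 fold change was 0.56 (standard error 0.14, unadjusted p = 0.00543, adjusted p = 0.501 from limma). By its single RefSeq transcript of 1877 bases these values stand for about 28.9, 29.96 and 17.99 reads in WT and 40.03, 49.9 and 47.99 reads in Apelin-KO samples. The unadjusted p-value of Hoxa5 stayed under 0.05 in all 13 alternatives, between 0.00380 and 0.0194.

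Hoxa6 (chr6:52206288-52208722, minus strand), a patterning gene of the trunk, was 2.19, 1.80 and 1.104 FPKM in the WT samples and 0.432, 0.986 and 0.857 FPKM in the Apelin-KO samples. All Apelin-KO values lay below all WT values, but WT 3 and Apelin-KO 2 were close. The log2 fold change was -0.61 (standard error 0.19, unadjusted p = 0.0158, adjusted p = 0.501 from limma), and the Apelin-KO mean was 44.7% of the WT mean. The FPKM of Hoxa6 were multiples of a common step, and the smallest whole numbers of reads that match them are 11, 8 and 5 in WT and 2, 5 and 4 in Apelin-KO samples. WT 3 and Apelin-KO 2 would then hold 5 reads each. The step corresponds to 494 bases, less than expected of the single RefSeq transcript of 874 bases, by which the estimates are 15.01, 10.9 and 6.83 reads in WT and 2.74, 6.83 and 5.47 reads in Apelin-KO samples. Without WT 1 the unadjusted p-value was 0.0536, and without Apelin-KO 1 it was 0.0507.

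The other Hoxa genes above 1 FPKM had groups that overlapped and no unadjusted p-value under 0.05. Hoxa7 was 8.65, 6.58 and 8.21 FPKM in WT and 10.8, 7.11 and 11.3 FPKM in Apelin-KO samples (log2 fold change 0.27, standard error 0.19). The groups overlapped through Apelin-KO 2, which lay below WT 1 and WT 3. Hoxa9, known for its part in endothelial migration, was 1.62, 1.64 and 1.07 FPKM in WT and 1.05, 1.48 and 0.997 FPKM in Apelin-KO samples (log2 fold change -0.16, standard error 0.14). Hoxa10, best known from the uterus, was 2.81, 3.68 and 2.61 FPKM in WT and 3.04, 1.49 and 4.198 FPKM in Apelin-KO samples (log2 fold change -0.10, standard error 0.27). Apelin-KO samples of Hoxa10 lay both below and above all WT samples, and its direction turned when WT 2 or Apelin-KO 2 was left out, to 0.01 and 0.19. The unadjusted p-values of Hoxa7, Hoxa9 and Hoxa10 were 0.195, 0.290 and 0.718.

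In the Hoxb cluster no gene had an unadjusted p-value under 0.05, with adjusted p-values from 0.591 to 0.710. Hoxb7, known to drive growth factor expression and angiogenesis, was 16.9, 18.2 and 18.3 FPKM in WT and 16.7, 24.7 and 20.6 FPKM in Apelin-KO samples. Apelin-KO 1 was the lowest of the 6 values and the other two Apelin-KO samples were the highest. Its log2 fold change was 0.19 (standard error 0.15). Hoxb5, which activates the VEGF receptor gene Kdr in endothelial precursors, was 2.09, 3.01 and 3.92 FPKM in WT and 3.02, 4.19 and 5.36 FPKM in Apelin-KO samples (log2 fold change 0.37, standard error 0.22). Only WT 1 and WT 2 lay below all Apelin-KO values. Hoxb6 was 1.14, 0.793 and 1.56 FPKM in WT and 1.33, 1.56 and 2.08 FPKM in Apelin-KO samples (log2 fold change 0.30, standard error 0.17). Hoxb9, a gene of the thoracic segments, was 1.57, 1.24 and 1.57 FPKM in WT and 1.53, 1.94 and 2.40 FPKM in Apelin-KO samples (log2 fold change 0.26, standard error 0.14). For Hoxb6 and Hoxb9 too, Apelin-KO 1 was the lowest Apelin-KO sample and lay within the WT range. Hoxb2, a gene of the hindbrain, ran the other way, with 4.27, 5.44 and 4.65 FPKM in WT and 2.02, 4.50 and 4.07 FPKM in Apelin-KO samples (log2 fold change -0.40, standard error 0.23). Its Apelin-KO 1 value, an estimated 27.0 reads against 55.0 to 69.9 in the other samples, lay far below the rest, and without it the log2 fold change of Hoxb2 was -0.13.

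The number of Hox genes that stood apart was highest without Apelin-KO 1 and nearly as high without Apelin-KO 2. Without Apelin-KO 1, 5 Hox genes had an unadjusted p-value under 0.05, all higher in Apelin-KO ECs (Hoxa5, Hoxb5, Hoxb7, Hoxb9 and Hoxd8), where 4.43% of all tested genes were. Groups that did not overlap were then seen for 6 Hox genes higher and 1 lower in Apelin-KO ECs, but with fewer samples they are more frequent among all genes too, at 15% and 12.8%. None of these passed an adjusted p-value under 0.05 in that fit, where the lowest was 0.555. Without Apelin-KO 2, 3 Hox genes higher and 1 lower had an unadjusted p-value under 0.05, beside 4.89% and 5.71% of all tested genes. Groups were then apart for 3 higher and 3 lower, beside 14.9% and 12.6%. Apelin-KO 1 was also the sample with the lowest summed hematopoietic and fibroblast marker levels, at 112 and 132 FPKM. Their part in the Hox values was not tested.

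In the Hoxd cluster all 3 tested genes had a higher mean in Apelin-KO ECs. Hoxd8 (chr2:74704615-74707933, plus strand), known as a keeper of vessel quiescence, was 31.7, 20.4 and 26.0 FPKM in the WT samples and 30.8, 35.0 and 39.2 FPKM in the Apelin-KO samples. WT 1 lay above Apelin-KO 1, so the groups overlapped. The means were 26.0 ± 5.68 FPKM (SD, n = 3) and 35.0 ± 4.23 FPKM (SD, n = 3), and the log2 fold change was 0.43 (standard error 0.18, unadjusted p = 0.0444, adjusted p = 0.524 from limma). Its unadjusted p-value was under 0.05 in only 4 of 13 alternatives. It was 0.136 without WT 2, 0.0811 without WT 3, 0.0940 without Apelin-KO 2 and 0.128 without Apelin-KO 3. Hoxd9 was 6.41, 5.78 and 6.30 FPKM in WT and 8.36, 5.73 and 8.45 FPKM in Apelin-KO samples (log2 fold change 0.23, standard error 0.15), and Apelin-KO 2 was the lowest of all. Hoxd10, known to hold ECs in a resting state, was 7.81, 5.78 and 6.67 FPKM in WT and 8.59, 10.3 and 6.53 FPKM in Apelin-KO samples (log2 fold change 0.28, standard error 0.18). There it was Apelin-KO 3 that lay within the WT range. The unadjusted p-values of Hoxd9 and Hoxd10 were 0.170 and 0.156.

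**Figure D3:**
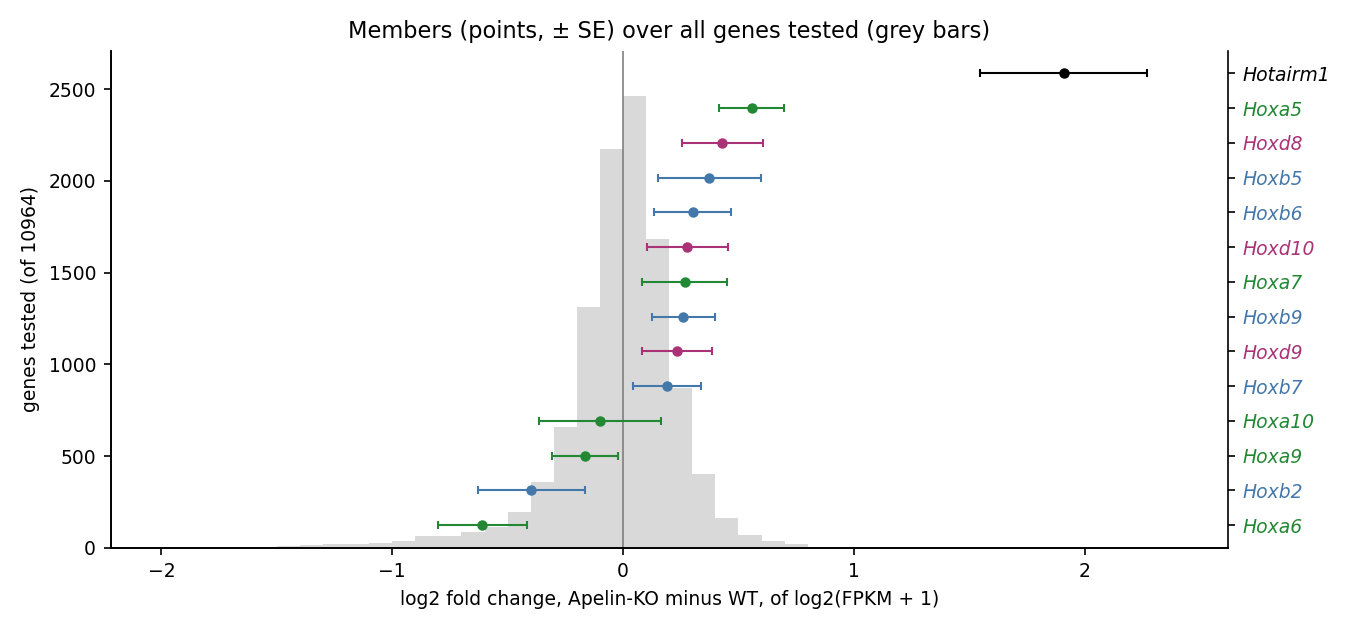
Log2 fold change (Apelin-KO minus WT of log2(FPKM + 1), horizontal axis) of the 13 tested Hox genes and Hotairm1 as points with standard errors, colored by cluster (green Hoxa, blue Hoxb, purple Hoxd), over the distribution of all 10964 tested genes (grey, left axis), of which 32 lie outside the axis. The Hox genes run from -0.61 for Hoxa6 to 0.56 for Hoxa5, and Hotairm1, which was chosen for its difference, stands at 1.91.

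The other 26 Hox genes had a mean under 1 FPKM and were not tested. Hoxb1, Hoxb13, Hoxc11, Hoxc12, Hoxc13 and Hoxd12 were listed at 0 in all 6 samples, and the other 20 had means between 0.00583 and 0.654 FPKM. The nearest gene below the filter was Hoxb4 at 0.654 FPKM and the nearest above it was Hoxa6 at 1.23 FPKM. Hoxd1 and Hoxd11 rested on about 1 read in a single sample each. The anterior genes Hoxa2, Hoxa3 and Hoxa4 had means of 0.585, 0.550 and 0.651 FPKM, with overlapping groups. Hoxb3, known to favor the forming of vessel tubes, and Hoxd3, known to turn ECs towards an invasive state, stood at means of 0.309 and 0.246 FPKM.

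Among these low genes the groups did not overlap for Hoxd13 and Hoxb8, both lower in Apelin-KO ECs, and for 0 genes higher in Apelin-KO ECs. Over all 16341 genes above 0 in any sample, the groups did not overlap for 6.65% in the lower and 5.99% in the higher direction. These shares take in the 10964 genes above the filter, so they are not those of the low genes alone. Hoxd13 (chr2:74668310-74671599, plus strand), the most posterior Hoxd gene and a gene of digits and genital tubercle, was 1.25, 0.922 and 0.667 FPKM in the WT samples and 0.0470, 0.426 and 0.231 FPKM in the Apelin-KO samples. By its single RefSeq transcript of 2483 bases these are about 28.9, 18.95 and 13.97 reads in WT and 1.01, 9.98 and 4.99 reads in Apelin-KO samples. The Apelin-KO mean was 24.8% of the WT mean. When all 16341 genes above 0 in any sample were fitted with limma, Hoxd13 had a log2 fold change of -0.66 (standard error 0.16, unadjusted p = 0.00610, adjusted p = 0.510). Hoxb8 (chr11:96281905-96285315, plus strand), known from blood cell progenitors, was 0.201, 0.181 and 0.222 FPKM in WT and 0, 0.159 and 0.173 FPKM in Apelin-KO samples. That is 5, 4 and 5 reads against 0, 4 and 4, where the groups are apart only through differences in depth and 1 read.

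Hotairm1 was 3.42, 3.86 and 1.90 FPKM in the WT samples and 12.98, 8.46 and 23.9 FPKM in the Apelin-KO samples. All Apelin-KO values lay above all WT values, which its choice on these samples leaves no test of. The means were 3.06 ± 1.03 FPKM (SD, n = 3) and 15.1 ± 7.93 FPKM (SD, n = 3), 4.94-fold apart, with a log2 fold change of 1.91. With single samples left out it lay between 1.54, without Apelin-KO 3, and 2.24, without Apelin-KO 2.

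These FPKM rest on few reads. The 6 values of Hotairm1 were whole multiples of a common step within 0.00598 of a read, and the smallest whole numbers that match them are 2, 2 and 1 reads in the WT samples and 7, 5 and 13 reads in the Apelin-KO samples. A single read was worth between 1.69 and 1.93 FPKM. The step corresponds to 57.5 bases of effective length, close to what remains of the 253-base transcript once the assumed fragment length is taken off. If reads were instead spread over the longer annotated transcript of 409 bases, the same FPKM would stand for 7.28, 7.29 and 3.65 reads in WT and 25.6, 18.2 and 47.4 reads in Apelin-KO samples, which are not whole. Of the 30 estimated reads, 25 came from Apelin-KO samples, or 83.3%, while these samples held 50.7% of the estimated depth. Per depth that is a ratio of 4.86. It describes reads pooled over samples of a gene chosen for this difference, and was not tested.

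**Figure D4:**
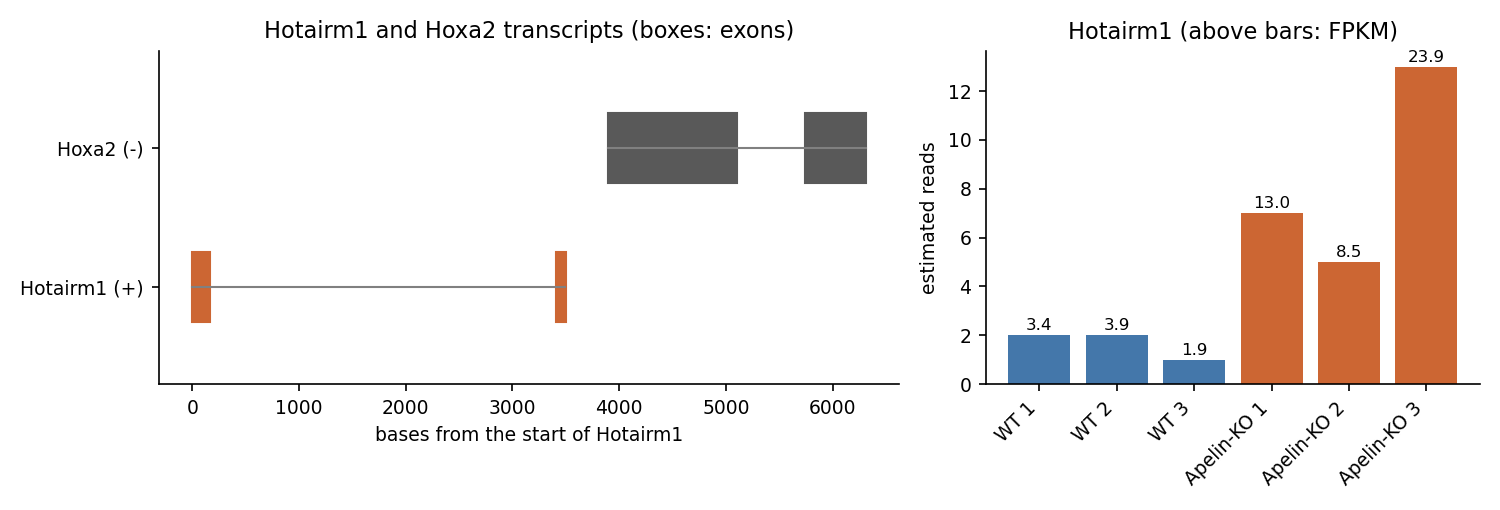
Left, the 253-base GENCODE transcript of Hotairm1 and the transcript of Hoxa2, with exons as boxes, introns as lines and the strand in brackets. The horizontal axis gives bases from the start of the Hotairm1 transcript. The Hoxa2 transcript lies 396 bases after it. Right, estimated reads of Hotairm1 per sample (vertical axis), with FPKM above the bars. The WT samples (blue) hold 1 or 2 reads and the Apelin-KO samples (orange) 5 to 13.

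The neighbour Hoxa2 was 0.812, 0.493 and 0.623 FPKM in WT and 0.542, 0.371 and 0.671 FPKM in Apelin-KO samples, and its groups overlapped. These values stand for 13, 7 and 9 reads in WT and 8, 6 and 10 reads in Apelin-KO samples.

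Of the 16 other RNA genes listed for the Hox clusters, 15 were in the tables and none had a mean of 1 FPKM. Hotair, Hottip and the 6 listed microRNA genes, among them Mir10a, Mir10b and Mir196b, were at 0 in all samples. The highest was Hoxd3os1, an antisense RNA of the Hoxd cluster, with a mean of 0.719 FPKM. The poly(A) libraries were not made to measure microRNAs.

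The partners of HOX proteins and the regulators of the clusters were given by the lists chosen for this description, and none of their genes had an adjusted p-value under 0.05. Of the 9 TALE homeodomain cofactors, with which HOX proteins bind DNA, 4 were tested. Pbx3 was the highest with a mean of 13.6 FPKM, and the 5 others lay below the filter. Of the 4, 1 had an unadjusted p-value under 0.05, Pbx2, with 2.19, 1.49 and 2.34 FPKM in WT and 2.82, 2.99 and 4.42 FPKM in Apelin-KO samples (log2 fold change 0.55, standard error 0.18, unadjusted p = 0.0180, adjusted p = 0.501 from limma). In this direction 4.25% of all tested genes passed. The groups of Pbx2 did not overlap, as was so for 7.77% of all tested genes. The median log2 fold change of the 4 cofactors was 0.15. Below the filter, Meis1 and Pknox2 had groups apart in the other direction, as had 6.65% of all genes above 0. Meis1 was 0.624, 0.563 and 0.276 FPKM in WT and 0, 0.185 and 0.201 FPKM in Apelin-KO samples. Pknox2 was 0.816, 1.23 and 0.603 FPKM in WT and 0.262, 0.449 and 0.455 FPKM in Apelin-KO samples.

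Polycomb group proteins keep silent Hox genes closed, and trithorax group proteins keep active ones open. Of 20 listed, 18 were tested, none had an unadjusted p-value under 0.05, and the median log2 fold change was -0.02. Groups that did not overlap were seen for Ezh1, a methyltransferase of the Polycomb complex, with means of 14.3 FPKM in WT and 16.7 FPKM in Apelin-KO ECs. They were also seen for Kdm6a, which removes the Polycomb mark, with 5.20 and 5.80 FPKM, and in the other direction for Ash2l, a trithorax subunit and the highest of the list, with 24.6 and 22.3 FPKM. Groups apart in these 3 of 18 genes compare with 14.4% of all tested genes in both directions together.

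Retinoic acid is the classical inducer of anterior Hox genes and of Hotairm1. Of 17 genes of its pathway, 8 were tested, with a median log2 fold change of 0.09. Only Rara, the gene of a retinoic acid receptor, had an unadjusted p-value under 0.05, with 17.1, 13.9 and 15.8 FPKM in WT and 19.02, 17.8 and 21.7 FPKM in Apelin-KO samples (log2 fold change 0.30, standard error 0.12, unadjusted p = 0.0413, adjusted p = 0.521 from limma), and its groups did not overlap. That is 1 of 8 genes, beside 4.25% of all tested genes for the call and 7.77% for the groups. Cyp26a1, which degrades retinoic acid and is one of its direct targets, was below the filter with a mean of 0.627 FPKM.

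Of the 15 protein genes that flank the clusters, 13 were in the tables and 9 were tested, with a median log2 fold change of -0.10. Those with an unadjusted p-value under 0.05 were 1 higher and 2 lower in Apelin-KO ECs, beside 4.25% and 5.17% of all tested genes. The same 3 genes had groups that did not overlap, beside 7.77% higher and 6.61% lower of all tested genes. Calcoco1, beside the Hoxc cluster, was 7.63, 6.83 and 7.83 FPKM in WT and 11.03, 9.84 and 15.4 FPKM in Apelin-KO samples (log2 fold change 0.61). Snx10, a sorting nexin beyond the Hoxa cluster, was 31.2, 33.0 and 29.4 FPKM in WT and 19.3, 26.9 and 18.8 FPKM in Apelin-KO samples (log2 fold change -0.52). Lnp, beside the Hoxd cluster, was 1.39, 1.56 and 1.44 FPKM in WT and 0.750, 1.12 and 1.17 FPKM in Apelin-KO samples (log2 fold change -0.30). Mtx2, also beside the Hoxd cluster, was the highest, with a mean of 74.8 FPKM.

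The means of cell type markers also differed between the groups, but no tested marker had an adjusted p-value under 0.05. Their counts stand beside 4.25% of all tested genes higher and 5.17% lower in Apelin-KO ECs at an unadjusted p-value under 0.05, and beside 7.77% and 6.61% with groups that did not overlap. All 15 endothelial markers had log2 fold changes above 0, with a median of 0.22 beside 0.26 for the tested Hox genes, and 4 had an unadjusted p-value under 0.05 and groups that did not overlap (Pecam1, Cdh5, Tie1 and Ptprb). Esam was the highest, with a mean of 1023 FPKM. All 11 tested hematopoietic markers had log2 fold changes below 0, with a median of -1.19, and 4 had an unadjusted p-value under 0.05 (Ptprc, Itgam, Adgre1 and Tyrobp). Their summed level, led by Lyz2, was 241 to 795 FPKM in WT and 112 to 295 FPKM in Apelin-KO samples, although CD45- cells had been sorted, and 1 of the 15 listed markers was at 0 throughout. Ptprc, which encodes CD45, was 0.0430 to 4.84 FPKM.

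Of the 12 fibroblast markers, 7 were tested and all had log2 fold changes below 0, with a median of -0.60. Pdgfra, Col1a1, Col3a1 and Dcn had an unadjusted p-value under 0.05, Col1a1 was the highest, and the sum was 198 to 346 FPKM in WT and 132 to 205 FPKM in Apelin-KO samples. Fap, below the filter, ran the other way, with 0.0780, 0.133 and 0.0430 FPKM in WT and 0.468, 0.427 and 0.337 FPKM in Apelin-KO samples. Of the 12 pericyte markers, 9 were tested, 6 with log2 fold changes above 0 and 3 below (Cspg4, Tagln and Mcam). Their median was 0.26, and Rgs5 and Higd1b were higher in Apelin-KO ECs at an unadjusted p-value under 0.05. Mcam was the highest, with a mean of 511 FPKM, near the 494 FPKM of the endothelial marker Emcn. Kcnj8 and Abcc9 had 85.5 and 69.1 FPKM, and Pdgfrb had 6.69 FPKM. The sum was 587 to 752 FPKM in WT and 657 to 768 FPKM in Apelin-KO samples. It mainly follows Mcam and is no measure of pericytes. Of the 14 epithelial markers taken for MC38 tumor cells, only Krt20 was tested, at 6.41 to 20.6 FPKM, while Epcam was at or under 0.264 FPKM and Cdx2 at 0 in all samples. The part of these cell types in the Hox values and in Hotairm1 was not tested.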

How the data were processed

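ECs were compared in 3 WT and 3 Apelin-KO samples. The authors made stranded mRNA libraries, mapped single-end reads to mm10 and computed FPKM with Cufflinks. The submitters' processing notes list bcl2fastq 2.17.1.14, TopHat2 2.1.1, Bowtie2 2.2.4, SAMtools 1.0 and Cufflinks 2.2.1, and the study's methods give other versions for some of these. The annotation and the strand setting are not given in the sources used here. Each deposited table lists FPKM by gene symbol for 1 sample, without read counts.

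FPKM were used as deposited. Genes whose mean reached 1 FPKM were compared on log2(FPKM + 1) with limma 3.58.1 in R 4.3.3 (two-sided moderated test, no intensity trend, Benjamini-Hochberg adjustment over all genes tested). The procedure was tested on simulated data. With 3 samples against 3, no exact permutation p-value can fall below 0.1. Members and lists were chosen with earlier results of these data known.

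The text names every Hox gene with a mean of at least 1 FPKM, Hotairm1, and low members whose groups do not overlap. From the other lists it names genes that reached 1 FPKM with an unadjusted p-value under 0.05 or groups that do not overlap, and the highest gene. Other low genes were named after their values were seen, and some genes are not reported here.

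Depth was estimated as the number of reads that brings low FPKM of 3627 single-transcript genes of at least 700 bases closest to whole reads, which put 67.2% to 70.1% of the low values within 0.1 of whole reads. For a member, steps were accepted where all 6 samples lay within 0.05 of whole reads, and otherwise reads were computed from the longest RefSeq transcript. Positions come from GENCODE on GRCm38. The other tools were numpy 2.4.6, matplotlib 3.10.9 and pandas 2.3.3 under Python 3.11.15. Alternatives changed the pseudocount, the filter, the scaling, the variance and the samples, or included a replicate block.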

Additional observations from a re-analysis of the deposited data

How the results depend on the processing

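Over the 13 alternatives, 0 Hox genes had an adjusted p-value under 0.05 in each fit. The count of 3 Hox genes with an unadjusted p-value under 0.05 fell to 1 with each gene's own variance. The share of all tested genes went from 9.42% to 7.14% there. With single samples left out the count ranged from 2 to 5, where 5 came without Apelin-KO 1, beside 4.91% to 11.2% of all tested genes. The cause was not tested. The count of 2 of 13 Hox genes with groups that do not overlap was 4 of 33 without the filter on mean FPKM, which adds Hoxb8 and Hoxd13. The share among all genes was 14.4% with the filter and 12.6% without it. With single samples left out the count of Hox genes ranged from 2 to 7. It was 4 of 13 without WT 1, 5 without WT 3, 6 without Apelin-KO 2 and 7 without Apelin-KO 1, but leaving out a sample also raised the share of all tested genes, from 14.4% to 23.3%, 30%, 27.4% and 27.7%. Hoxa10 turned direction without WT 2 (0.01) and without Apelin-KO 2 (0.19), ranging from -0.34 to 0.19 with single samples left out, and no other tested member did so. Of 182 values of single Hox genes and Hotairm1 under the alternatives, 160 kept their direction and their side of the threshold or moved by less than the replicate SD, 12 lost and 8 gained an unadjusted p-value under 0.05. Hoxd8 was lost in 9 of its 13 alternatives, among them median-of-ratios scaling. With the replicate number as a block, 3 Hox genes had an unadjusted p-value under 0.05 (Hoxa5, Hoxb5 and Hoxa6), beside 8.14% of all tested genes. Samples with the same number did not deviate together (correlations -0.139, 0.207 and -0.0186), so the numbers were not taken to pair the samples. Low depth limits most the genes with few reads, Hotairm1 with an estimated 1 to 13 and Hoxa6 with an estimated 2 to 15.01 reads per sample.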
